A study of Mus musculus with 98 samples.

Results

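Collagens are the proteins that form the fibres, basement membranes and pericellular meshes around muscle fibres. The collagen genes described here are those whose symbol in the expression table reads Col, a number, a and a number, with a mean level of at least 0.5 TPM (a transcript level scaled by transcript length and by the total of the library) over all 98 libraries. Of 24526 genes, 44 had such a symbol and 36 reached the level. Col28a1 was just inside the limit with a mean of 0.504 TPM and Col6a5 just outside it with 0.357 TPM. The others below it were Col4a6, Col6a4, Col9a2, Col9a3, Col10a1, Col17a1 and Col25a1. The splicing table held 117460 events, of which 310 lay in 33 of the 36 genes. Col6a2, Col8a2 and Col28a1 had none.

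The libraries came from hindlimb muscle of HSALR mice, a model of myotonic dystrophy, and of the FVB/NJ wild type. HSALR homozygous mice carry a human skeletal actin gene with a long CTG repeat, and its own skeletal actin promoter drives the transgene in muscle fibres. Treated HSALR mice received a (CAG)7 phosphorodiamidate morpholino oligomer (PMO), an antisense oligonucleotide that pairs with CUG repeats, either unconjugated or joined to EEV4, a delivery peptide (EEV4-PMO). The gastrocnemius dose cohort was taken at 7 days and held FVB/NJ mice given saline (PBS, n = 4) and HSALR mice in 4 arms. These were PBS (n = 8), EEV4-PMO at 15 or 30 mg/kg (n = 4 each) and 4 libraries of unconjugated PMO at 30 mg/kg. The gastrocnemius time course held FVB/NJ PBS and HSALR PBS muscle at 4 days and HSALR muscle at 1, 2 and 4 days after EEV4-PMO at 15 mg/kg (n = 4 each). The quadriceps time course had the same groups and a further one at 7 days (n = 4 each). A second quadriceps cohort gave newly made (nascent) RNA, captured after labelling with ethynyl uridine (EU), and total RNA of the same design: HSALR PBS at 4 days (n = 4) and EEV4-PMO at 15 mg/kg at 1 and 2 days (n = 3 each). A last quadriceps cohort was taken at 3 months, with 6 HSALR libraries after EEV4-PMO at 15 mg/kg and 4 after PBS. Ages are not in the labels used here.

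A collagen molecule is 3 chains wound into a triple helix, which requires a glycine at each turn of a repeat of 3 residues in every chain. Fibrillar collagens I, III and V form the cables of tendon and of the muscle's connective tissue, and collagen IV forms the network of basement membranes, including those of muscle fibres and capillaries. Collagen VI lies between them around each fibre, and inherited defects in it cause muscular dystrophies. Fibroblasts make most of the fibrillar and type VI collagen in muscle.

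The transgene RNA, listed as hACTA1, was between 42.1 and 81.6 TPM in the FVB/NJ libraries and at least 5726 TPM in every HSALR library, so each library had the genotype on its label. The summed level of 8 muscle fibre markers was at least 84895 TPM in every library except those of nascent RNA, where it was between 59673 and 73018 TPM. No read counts were among the files used here, so the depth of the libraries is unknown and no counting error is given. No 2 libraries held identical values. The 36 collagen genes together had between 398 and 3335 TPM per library. A change is called where the adjusted p of limma is under 0.05, and log2 differences are on the log2(TPM + 1) scale, which understates the change of genes of low level. Shares of all genes are given for called changes only, not for an unadjusted p or for the sign of a difference. The p-values measure the spread between libraries, since the labels used here do not say how the animals were raised or grouped.

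The exons of these genes carry the triple helix as a repeat that can be read in the DNA. The 4 exons below are shown because they span this repeat, in genes of 3 classes. Each is written 5′ to 3′ on the coding strand in its reading frame (GRCm38, GENCODE vM21), with glycine codons in capitals. Col1a2 is at chr6:4515481-4515534 on the plus strand, Col3a1 at chr1:45332965-45333018 on the plus strand, Col16a1 at chr4:130073069-130073116 on the plus strand and Col13a1 at chr10:61853357-61853392 on the minus strand.
Col1a2: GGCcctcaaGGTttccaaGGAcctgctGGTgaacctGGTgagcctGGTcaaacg
Col3a1: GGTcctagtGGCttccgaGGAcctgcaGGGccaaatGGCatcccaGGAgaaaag
Col16a1: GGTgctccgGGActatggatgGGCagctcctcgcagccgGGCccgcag
Col13a1: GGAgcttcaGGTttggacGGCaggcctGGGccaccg
The Col1a2 and Col3a1 exons, of the chains of collagen I and III, are each 54 nucleotides long and hold 6 glycine codons among 18, 1 in each run of 3. The Col16a1 exon, of a fibril-associated collagen, has 4 among 16 codons and breaks the spacing. The Col13a1 exon, of a transmembrane collagen found at the neuromuscular junction, has 4 among 12 codons in unbroken spacing.

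The collagen exons also differed from other exons in length. Of 243 distinct exons listed as skipped in collagen genes, 66 were 54 nucleotides long and 22 were 45 nucleotides long. Of 58019 such exons in all other genes, 315 were 54 nucleotides long. The length was a multiple of 3 in 82.7% of the collagen exons and in 40.7% of the others, and a multiple of 9 in 62.1% and 13.6%. The classes differed. Within the fibrillar class, 98.1% of 107 exons were a multiple of 3 and 86.0% a multiple of 9. In the fibril-associated class the shares were 67.7% and 38.5% of 65 exons, in the beaded filament class of collagen VI 75.0% and 43.8% of 16, and in the basement membrane network 13 and 10 of 25 exons. The median length was 57 nucleotides in collagen genes and 117 in the others. Exons of one gene share an origin, so these shares are a description without a test.

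**Figure D1:**
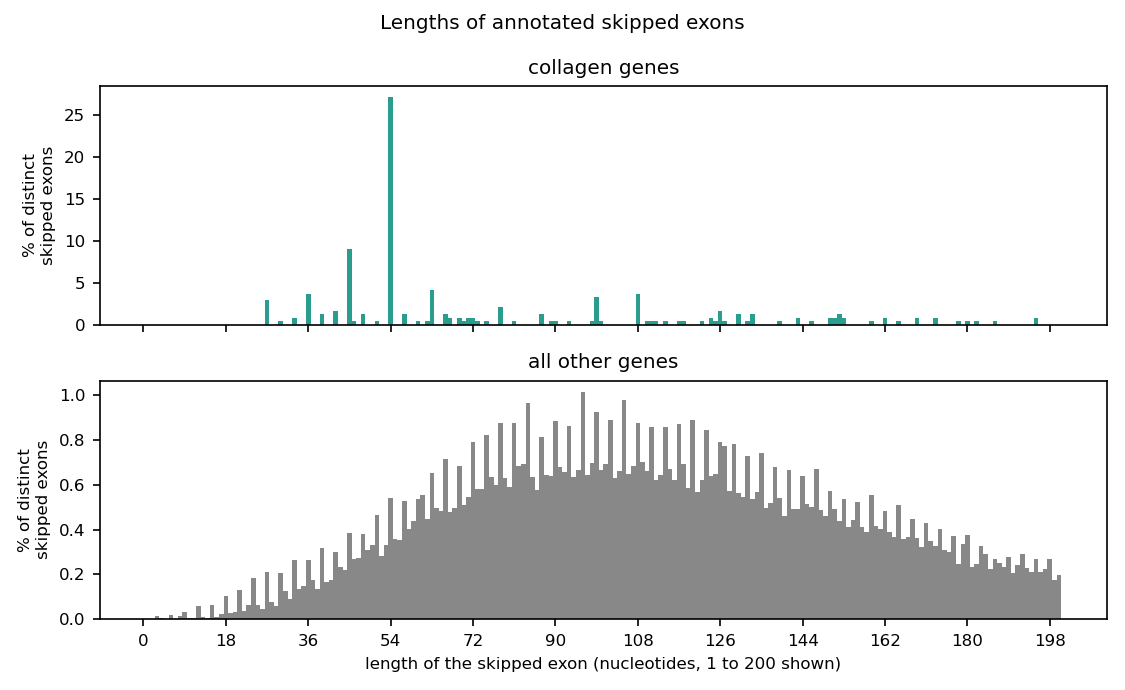
Share of distinct skipped exons (percent, vertical axis) at each exon length from 1 to 200 nucleotides (horizontal axis), for collagen genes and for all other genes. Collagen exons pile up at 54 and 45 nucleotides, while those of other genes spread over all lengths.

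Several of the genes are neighbours. The spans of Col4a1 and Col4a2, on chromosome 8, overlap by 85 nucleotides in RefSeq on GRCm38.p6, and those of Col4a3 and Col4a4 by 114. Col3a1 and Col5a2 lie 24624 nucleotides apart, and Col9a1 and Col19a1 4944. Because the treatment pairs with CUG repeats, the GENCODE transcripts were searched for CTG runs on the transcript strand. A run of at least 4 units was found in 3 of 36 collagen genes (8.33%), with 6 units in Col11a2 and 4 in Col5a1 and Col18a1, and in 2.89% of 23803 genes. No collagen gene held a run of 7 or more units, against 0.235% of all genes. The motif CCAAT, searched on both strands in the 250 bases before each RefSeq start, was in 10 of 31 collagen promoter windows (32.3%, 28 genes matched) and in 33.8% of all 32851 windows.

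Of the fibrillar genes, 3 were the most abundant collagens of this muscle, Col1a1, Col1a2 and Col3a1, while others were among the lowest. Because of the scaling by length, levels in TPM can be set side by side between genes. In HSALR PBS quadriceps at 4 days, Col1a1 had 607 ± 169 TPM (SD, n = 4), Col1a2 473 ± 120 and Col3a1 421 ± 94.0. The basement membrane chains Col4a1 and Col4a2 followed with 156 ± 39.7 and 109 ± 22.9 TPM, then Col6a2, Col6a1 and Col6a3 with 98.5 ± 17.3, 90.2 ± 12.8 and 67.5 ± 9.75 TPM. The spreads of the first 3 overlapped, as did those of Col4a2, Col6a2 and Col6a1. Col15a1, of the basement membrane zone, had 46.4 ± 7.89 TPM and Col5a1, which helps fibrils start, 43.6 ± 7.46 TPM. The fibrillar genes Col24a1 and Col27a1 had 3.91 ± 0.914 and 1.36 ± 0.233 TPM. The mean over all libraries was 23.2 TPM for Col5a3, 14.3 for Col22a1, a collagen of the muscle-tendon junction, 7.61 for Col7a1, the anchoring fibril collagen of skin, and under 1 TPM for Col2a1, Col26a1 and Col28a1. Col25a1, a transmembrane collagen made by muscle during innervation, was below the limit, with between 0.0120 and 0.665 TPM per library.

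Wild-type and HSALR muscle differed in a few collagens. In gastrocnemius at 7 days, the basement membrane genes Col4a1, Col4a2 and Col4a5, the junction gene Col22a1 and the low genes Col2a1 and Col26a1 were higher in FVB/NJ than in HSALR PBS muscle, and Col7a1 and Col9a1 were lower. These were 8 of the 36 collagen genes, beside 19.0% called among all 15107 genes tested. By direction, 6 were higher, beside 8.20% of all genes, and 2 lower, beside 10.8%. The collagen median was a log2 difference of 0.23, and that of all genes 0.

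Col22a1 had 23.3, 20.8, 24.5 and 21.9 TPM in the 4 FVB/NJ libraries, and 10.02, 13.5 and 16.2 TPM as the lowest, median and highest of the 8 HSALR PBS libraries. The groups did not overlap, and the log2 difference was 0.72 ± 0.12 (SE, adjusted p = 0.000245). Col7a1 had 5.91, 5.74, 8.65 and 7.85 TPM in FVB/NJ and between 9.46 and 18.3 TPM, with a median of 14.3 TPM, in HSALR PBS muscle. Every FVB/NJ library was below every HSALR library, and the difference was -0.92 ± 0.16 (adjusted p = 0.000340). Col9a1, a chain of cartilage fibrils, had 0.896, 1.77, 0.982 and 0.654 TPM in FVB/NJ and from 0.920 to 7.45 TPM (median 3.61) in HSALR PBS muscle, a difference of -1.15 ± 0.29 (adjusted p = 0.00685) with overlapping groups. Col2a1, the main cartilage collagen, had 1.44, 1.72, 2.71 and 2.08 TPM against 0.636 to 1.57 TPM (median 0.766), with slight overlap and a difference of 0.62 ± 0.17 (adjusted p = 0.0142).

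Col4a1, a chain of the main basement membrane network, had 159, 145, 167 and 139 TPM in FVB/NJ and 97.7 to 133 TPM (median 114) in HSALR PBS gastrocnemius, and the groups did not overlap. Its difference and that of its partner Col4a2 were each 0.41 ± 0.12 (adjusted p = 0.0200 and 0.0173). Col4a5 was higher by 0.42 and Col26a1 by 0.50. The most abundant gene, Col1a1, had 393, 552, 1045 and 628 TPM in FVB/NJ and between 240 and 553 TPM (median 342) in HSALR PBS muscle. The groups overlapped and the gene was not called. Beside these values, 6 of 7 endothelial markers were higher in FVB/NJ muscle (summed level 233 to 277 TPM against 157 to 200), 3 of 7 macrophage markers were lower, and 1 of 10 fibroblast markers was lower (649 to 1298 TPM against 832 to 1676). Of 8 smooth muscle and pericyte markers 2 were higher, with sums of 498 to 543 TPM against 419 to 483 TPM. Of 8 muscle fibre markers 3 were higher and 2 lower, with sums of 138853 to 152756 TPM against 124800 to 136029 TPM. The endothelial, pericyte and fibre sums did not overlap between the genotypes. Their part in the collagen differences was not tested. Without FVB/NJ replicate 3, 3 collagen genes were called, and Col26a1 was not called when only the groups compared were fitted.

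In the time course cohorts Col7a1 alone was called between genotypes. In gastrocnemius at 4 days it had 2.21, 6.16, 4.68 and 5.07 TPM in FVB/NJ and 10.3, 11.4, 6.36 and 14.3 TPM in HSALR PBS muscle, with no overlap (log2 difference -1.08 ± 0.24, adjusted p = 0.00836). This was 1 of 36 collagen genes, beside 7.65% of all genes called and 6.23% called lower. It was not called in a fit of these groups alone. Without HSALR PBS replicate 3, 3 collagen genes were called, and without FVB/NJ replicate 1, 2. In quadriceps at 4 days, Col7a1 had 0.891, 1.17, 1.06 and 0.807 TPM in FVB/NJ and 2.02, 1.94, 2.11 and 3.58 TPM in HSALR PBS muscle, again without overlap (-0.76 ± 0.19, adjusted p = 0.00937). It was 1 of 35 collagen genes tested, beside 12.7% of all genes called and 7.25% called lower, and without HSALR PBS replicate 1 or 2 a second gene, Col4a5, was called. The levels show that Col7a1 was lower in wild-type muscle of all 3 cohorts, each with its own control libraries. The labels used here do not say whether the 2 time courses share mice, so these may not be independent. In gastrocnemius at 4 days Col22a1 had 20.5 TPM on average in FVB/NJ (16.1 to 24.9) and 12.5 in HSALR PBS muscle (9.13 to 18.5). The groups overlapped and it was not called. Col22a1 had 16.4, 15.4, 12.8 and 15.7 TPM in FVB/NJ quadriceps and 18.1, 15.3, 11.3 and 21.4 TPM in HSALR PBS quadriceps, with overlap and no call. The difference between the muscles in the genotype effect was called for 0 of 36 collagen genes (limma, 0 at an unadjusted p under 0.05), beside 0.00664% of all genes.

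**Figure D2:**
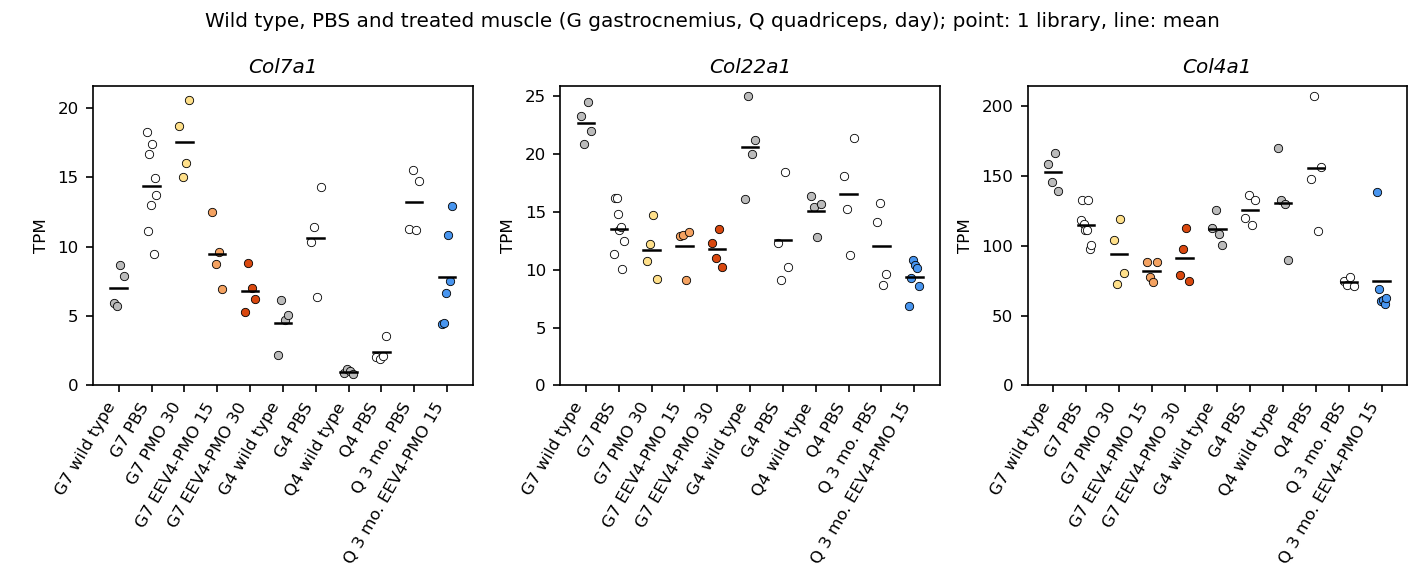
Level in TPM (vertical axis) of Col7a1, Col22a1 and Col4a1 in each library of the gastrocnemius dose cohort, the wild-type and HSALR PBS groups of the time courses, and the 3 month cohort (horizontal axis). In each of 3 cohorts Col7a1 is lower in wild-type than in HSALR PBS muscle, and in the dose cohort the libraries after EEV4-PMO at 30 mg/kg lie below all HSALR PBS libraries. Col22a1 is higher in wild-type than in HSALR PBS gastrocnemius at 7 days.

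In gastrocnemius at 7 days, Col5a3, Col6a2, Col7a1 and Col18a1 were lower than in PBS muscle after EEV4-PMO at both doses, while no collagen gene was called after unconjugated PMO. With PMO at 30 mg/kg, 0 of 36 collagen genes and 0% of all genes were called by limma, and 3 collagen genes had an unadjusted p under 0.05. The collagen median was -0.21 and the median of all genes 0.02. With EEV4-PMO at 15 mg/kg, 6 collagen genes fell, beside 2.83% of all genes, and 1 rose, beside 6.98% (9.81% either way), and the collagen median was -0.17 against 0.04. At 30 mg/kg, 5 fell, beside 4.92% of all genes, and 1 rose, beside 8.63% (13.6% either way), and the median was -0.20 against 0.05. All 3 treatments and the wild type were set against the same 8 HSALR PBS libraries.

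Col5a3, a minor fibrillar chain of the collagen V family, ranged from 20.8 to 35.9 TPM with a median of 28.5 TPM in HSALR PBS muscle. It had 21.8, 19.96, 24.3 and 20.6 TPM after PMO, 21.7, 19.5, 17.6 and 17.7 TPM after EEV4-PMO at 15 mg/kg and 17.4, 18.9, 22.6 and 15.7 TPM at 30 mg/kg. The lowest PBS library lay within the range of each treated group. The log2 difference was -0.58 ± 0.12 (adjusted p = 0.00473) for the lower dose and -0.62 ± 0.12 (adjusted p = 0.00186) for the higher. In the FVB/NJ libraries Col5a3 had 31.4, 36.6, 46.7 and 32.9 TPM.

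Col6a2, a chain of the pericellular collagen VI filament, had from 53.8 to 108 TPM (median 69.1) in HSALR PBS muscle. It had 43.0, 54.8, 34.1 and 43.8 TPM at 15 mg/kg and 43.0, 42.7, 51.9 and 33.1 TPM at 30 mg/kg. Only 1 treated library, at 15 mg/kg, was above the lowest PBS library. The differences were -0.71 ± 0.18 (adjusted p = 0.0137) and -0.75 ± 0.18 (adjusted p = 0.00680). Its partner Col6a1 had 56.2 to 103 TPM (median 68.3) in PBS muscle, 46.8, 61.8, 38.6 and 52.7 TPM at 15 mg/kg and 51.2, 43.1, 55.4 and 38.5 TPM at 30 mg/kg, where it was called (-0.60 ± 0.17, adjusted p = 0.0202).

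Col7a1 had 18.6, 15.0, 16.0 and 20.6 TPM after PMO, 12.5, 8.77, 9.59 and 6.92 TPM after EEV4-PMO at 15 mg/kg and 5.25, 8.80, 7.05 and 6.21 TPM at 30 mg/kg. All libraries at 30 mg/kg lay below the lowest PBS library, at 9.46 TPM, and within or below the range of the wild type apart from the one at 8.80 TPM. The differences from PBS were -0.55 ± 0.16 (adjusted p = 0.0360) for the lower dose and -0.96 ± 0.16 (adjusted p = 0.000423) for the higher. The call at the lower dose was lost in a fit of these groups alone and without any one of PBS replicates 1, 3, 5 and 7 or treated replicates 2, 3 and 4, while that at the higher dose was kept in all 18 alternatives. Set directly against PMO at the same 30 mg/kg, EEV4-PMO gave a Col7a1 level lower by a log2 difference of -1.25 ± 0.19 (adjusted p = 0.000164), with no overlap between the groups. In that comparison Col8a1 and Col4a5 were higher, by 0.61 and 0.47, so 3 of 36 collagen genes were called beside 10.6% of all genes. The background was 5.32% for the 2 that were higher and 5.28% for the 1 that was lower. Only Col7a1 remained called without PMO replicate 2, EEV4-PMO replicate 3 or 4, or in a fit of these groups alone. Between the 2 doses of EEV4-PMO, 0 of 36 collagen genes were called by limma (3 at an unadjusted p under 0.05), beside 0.0397% of all genes.

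Col4a1 had 88.2, 77.9, 73.8 and 88.3 TPM at 15 mg/kg, all below the 97.7 TPM of the lowest PBS library, a difference of -0.48 ± 0.12 (adjusted p = 0.0138). At 30 mg/kg it had 78.8, 97.7, 112 and 75.0 TPM and was not called. Col4a2 fell by 0.43 at 15 mg/kg. Col18a1, which gives rise to endostatin, differed by -0.44 and -0.42 at the lower and the higher dose, and was not called at either dose when only the groups compared were fitted, without filter, or without any one of PBS replicates 2, 4, 5 and 6. Leaving out treated replicate 2, 3 or 4 at the lower dose, or 1, 2 or 4 at the higher, also ended its call there.

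Col19a1, a fibril-associated collagen known from developing muscle, had 2.27 to 3.78 TPM (median 2.77) in PBS muscle and 4.09, 7.49, 5.23 and 4.32 TPM at 15 mg/kg. The groups did not overlap and the difference was 0.71 ± 0.14 (adjusted p = 0.00245). At 30 mg/kg it had 2.57, 4.12, 3.13 and 5.07 TPM and was not called. Col8a1, a short-chain collagen of vessel walls, rose at 30 mg/kg. It ranged between 3.89 and 6.44 TPM (median 5.15) in PBS muscle and had 9.49, 6.02, 12.4 and 8.68 TPM after treatment, with 1 treated library inside the PBS range (0.70 ± 0.16, adjusted p = 0.00577). Without EEV4-PMO replicate 3 at 15 mg/kg, 2 collagen genes remained called at that dose. At 15 mg/kg 0 of 10 fibroblast and 0 of 7 endothelial markers were called, and 1 of 19 genes of collagen synthesis and folding was lower.

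The gastrocnemius time course gave few called changes in collagen RNA, though several collagens were higher at 4 days without being called. After 1 day 0 of 36 collagen genes were called by limma (0 at an unadjusted p under 0.05, beside 1.13% called among all genes), and after 2 days 0 (3 unadjusted, beside 0.929%). After 4 days Col5a2 rose, 1 of 36 beside 0.497% of all genes called and 0.322% called higher. 13 collagen genes had an unadjusted p under 0.05 and 29 had a positive difference, with a median of 0.20 against 0.06 for all genes. The shares of all genes by these 2 measures are not given here. The 3 times were set against the same 4 PBS libraries, taken at 4 days.

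Col5a2, a chain of the fibril-starting collagen V, had 22.6, 33.7, 27.2 and 31.5 TPM in PBS muscle and 62.4, 42.8, 50.1 and 56.3 TPM at 4 days. The groups did not overlap and the difference was 0.86 ± 0.18 (adjusted p = 0.0385). It was not called in the fit with the replicate number as a block, with rescaled libraries, in a fit of these groups alone, or without any one of treated replicates 1, 3 and 4 or PBS replicates 1, 3 and 4. Col3a1 had 255, 333, 187 and 396 TPM in PBS muscle and 609, 498, 530 and 621 TPM at 4 days. Its groups did not overlap either, and it was not called. Col1a1 had 397, 318, 647 and 468 TPM in PBS muscle and 562, 317, 473 and 525 TPM at 4 days, with overlap. Col4a1 had 120, 136, 115 and 132 TPM against 158, 183, 171 and 149 TPM, and Col6a1 57.3, 78.2, 80.0 and 78.5 TPM against 96.5, 102, 84.1 and 97.5 TPM, both without overlap and without a call. Treated replicate 2 stood apart, with a summed level of 4148 TPM for adipocyte markers, 637 TPM for macrophage markers and 458 TPM for lymphocyte markers, where the PBS libraries reached 488, 178 and 5.61 TPM. Its muscle fibre sum, 84895 TPM, was below the 105598 to 125094 TPM of the PBS libraries. Without it 2 collagen genes were called, Col5a2 at 0.95 and Col8a1 at 1.28. In this comparison 0 of 10 fibroblast markers were called (1163 to 1948 TPM against 1146 to 1635) and 1 of 7 macrophage markers was higher.

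In quadriceps the collagens fell together by 7 days after EEV4-PMO. Of 35 collagen genes tested, 18 fell and 1, Col19a1, rose, beside 12.6% of all 14420 genes called, 7.05% lower and 5.58% higher. The collagen median was -0.86, that of all genes was 0, and 29 of 35 differences were negative. The summed collagen level was 764 ± 212 TPM (SD, n = 4) at 7 days, against 2294 ± 506 TPM in HSALR PBS quadriceps at 4 days and 1816 ± 182 TPM in FVB/NJ quadriceps at 4 days. The PBS libraries were taken at 4 days, so for the 7 day group the day and the treatment cannot be told apart. In bulk muscle, fewer cells of a type and less RNA per cell cannot be told apart either.

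Col1a1, the main chain of collagen I, had 691, 679, 354 and 703 TPM in PBS quadriceps and 192, 193, 107 and 76.0 TPM at 7 days. All 7 day libraries were below all PBS libraries, and the log2 difference was -2.14 ± 0.40 (adjusted p = 0.00149). In FVB/NJ quadriceps Col1a1 had 416, 524, 427 and 471 TPM. Its partner chain Col1a2 had 538, 532, 292 and 527 TPM in PBS muscle and 180, 183, 116 and 86.0 TPM at 7 days, with no overlap (-1.76 ± 0.35, adjusted p = 0.00248). Col3a1, of the collagen III that runs with collagen I in soft tissue, had 435, 461, 287 and 503 TPM against 176, 136, 132 and 70.4 TPM, with no overlap (-1.75 ± 0.26, adjusted p = 0.000207). Col6a2 had 94.6, 118, 76.9 and 105 TPM against 34.7, 35.7, 26.2 and 21.6 TPM (-1.72 ± 0.26, adjusted p = 0.000210). These 4 had the largest differences among the collagens.

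By class, 7 of 11 fibrillar genes fell, with a class median of -1.34. Beside those above they were Col5a1 (-1.54), Col5a2 (-1.34), Col5a3 (-1.28) and Col11a1 (-1.40), a chain known from cartilage. Of 4 collagen VI genes 3 fell, with Col6a3 at -1.42 and Col6a1 at -1.37. Col6a1 had 86.0, 108, 77.2 and 90.1 TPM in PBS muscle and 37.9, 41.8, 30.7 and 27.2 TPM at 7 days, with no overlap. Of the 7 fibril-associated genes, which sit on the surface of fibrils, Col12a1 (-1.35), Col14a1 (-1.26) and Col16a1 (-1.08) fell. The calls of Col14a1 and Col16a1 were kept in all 14 alternatives, while that of Col12a1 was lost without any one of PBS replicates 1, 2 and 4 or treated replicates 1, 3 and 4. Both genes of the basement membrane zone that release endostatin-like fragments fell, Col15a1 by 1.01 and Col18a1 by 0.86 on the log2 scale. Col15a1 had 45.5, 57.6, 39.1 and 43.4 TPM in PBS muscle and 28.4, 24.7, 22.2 and 15.8 TPM at 7 days, with no overlap. Of 5 collagen IV genes only the abundant pair was called, Col4a1 at -1.12 and Col4a2 at -0.88. Col4a1 had 148, 207, 111 and 157 TPM in PBS muscle and 84.0, 76.0, 68.0 and 53.4 TPM at 7 days. Col8a1 fell by 0.80, and was not called in 7 of 14 alternatives, which were a fit of these groups alone, no filter, and leaving out PBS replicate 1 or 2 or treated replicate 2, 3 or 4. Col11a1 was not called without treated replicate 3. Neither transmembrane gene was called, nor was Col7a1, which had 2.58, 2.47, 2.78 and 3.25 TPM at 7 days.

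Col19a1 moved the other way. It had 2.42, 1.64, 2.49 and 2.36 TPM in PBS quadriceps and 11.4, 5.48, 5.44 and 6.59 TPM at 7 days, with no overlap (1.30 ± 0.21, adjusted p = 0.000425). At 4 days it already had 7.60, 5.87, 8.14 and 7.12 TPM (1.34 ± 0.21, adjusted p = 0.000301). In FVB/NJ quadriceps it had 1.37, 2.08, 1.68 and 1.67 TPM, so the treated levels were above those of both PBS groups.

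No collagen gene of this cohort was called before day 4. At 1 day 0 of 35 collagen genes were called by limma (0 at an unadjusted p under 0.05), beside 0.541% of all genes, and at 2 days 0 (1 unadjusted), beside 1.74%. Col1a1 had 569, 320, 659 and 733 TPM at 1 day and 281, 738, 534 and 379 TPM at 2 days, within or near the PBS range. At 4 days 4 collagen genes fell, beside 3.38% of all genes, and Col19a1 rose, beside 4.78% (8.16% either way), and the collagen median was -0.44 against -0.01. The 4 that fell were the collagen VI genes Col6a1 (-0.87), Col6a2 (-0.95 ± 0.26, adjusted p = 0.0231) and Col6a3 (-0.85) and the collagen V gene Col5a1 (-0.87 ± 0.24, adjusted p = 0.0246). Here PBS and treated muscle were both taken at 4 days. Col6a2 had 34.3, 65.2, 47.1 and 58.3 TPM at 4 days and Col5a1 17.4, 31.7, 22.8 and 22.6 TPM, where PBS muscle had 41.3, 52.3, 34.6 and 46.0 TPM of Col5a1. For both genes every treated library was below every PBS library. Col6a3 had 28.0, 49.4, 33.4 and 38.9 TPM at 4 days against 62.1, 78.5, 56.9 and 72.4 TPM. Col1a1 ranged widely at 4 days, with 137, 286, 283 and 684 TPM, and was not called. Without treated replicate 4, the one at 684 TPM, it was called at -1.39 and Col1a2 at -1.13. Without treated replicate 1 or 3 or PBS replicate 4, only Col19a1 remained called, and without PBS replicate 1 or 2, 2 collagen genes were called. The 1, 2, 4 and 7 day groups share their 4 PBS libraries.

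**Figure D3:**
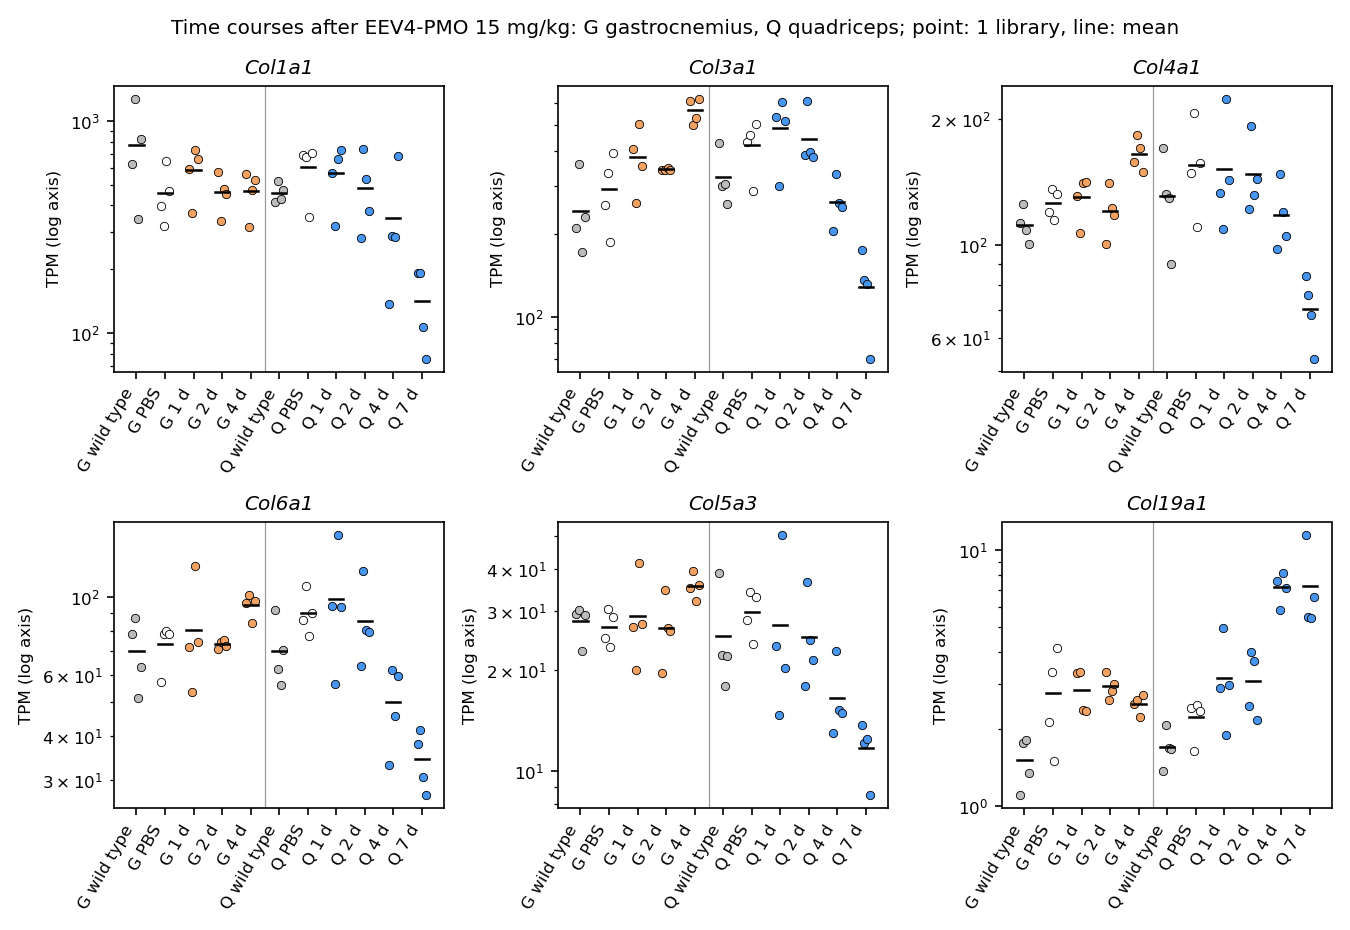
Level in TPM (vertical log axis) of Col1a1, Col3a1, Col4a1, Col6a1, Col5a3 and Col19a1 in each library of the gastrocnemius and quadriceps time courses (horizontal axis, by group). In quadriceps the first 5 genes are lowest at 7 days and Col19a1 is raised from 4 days. In gastrocnemius, which has no 7 day group in this cohort, they stay near or above the PBS level.

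**Figure D4:**
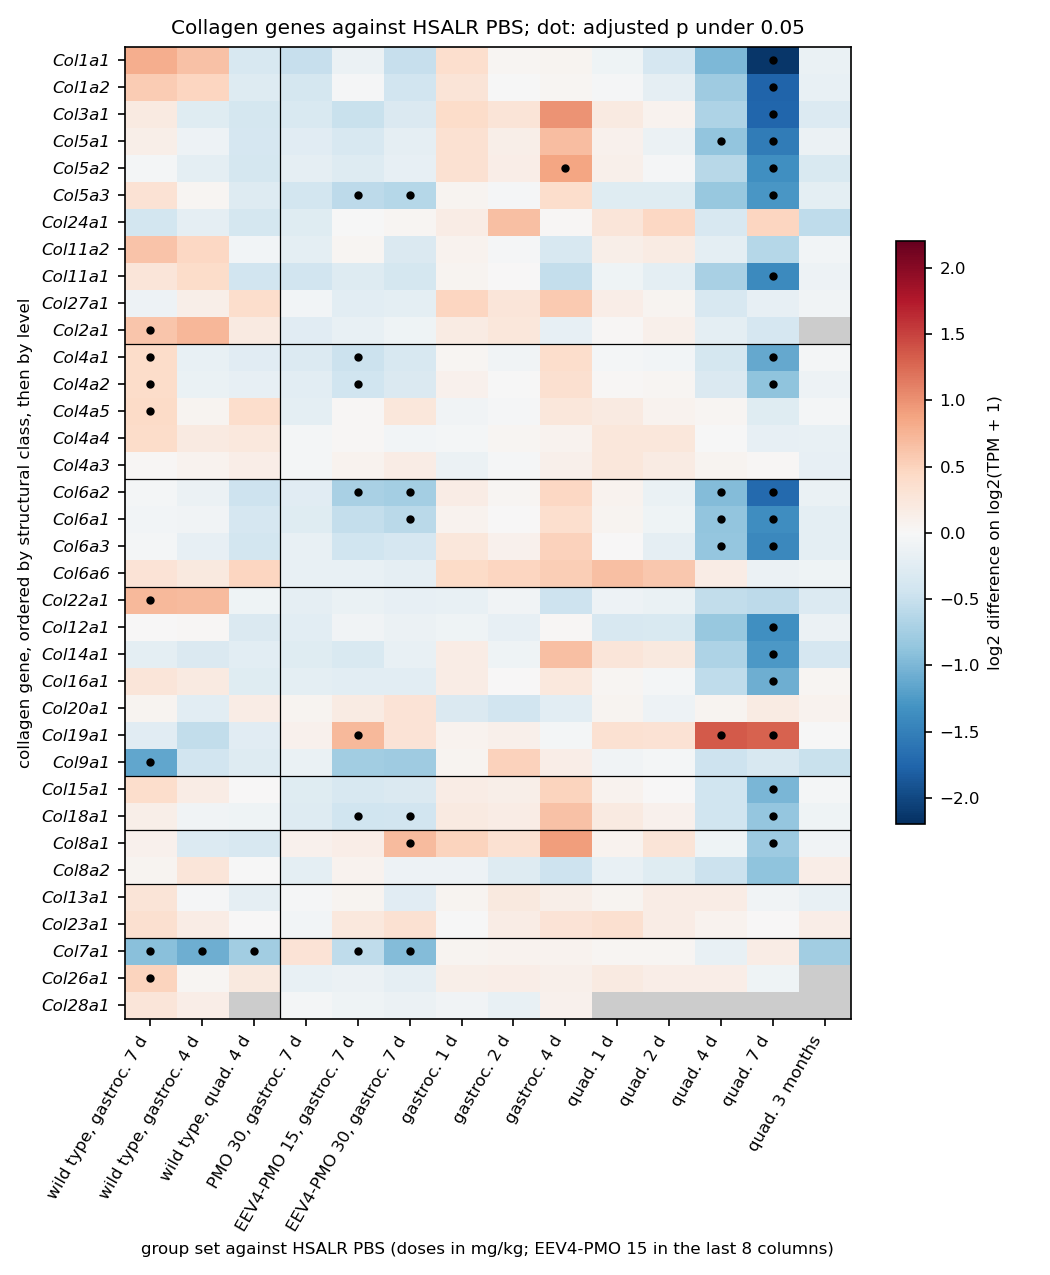
Log2 difference from HSALR PBS muscle (colour) of each of the 36 collagen genes (rows, by class and level) in 14 comparisons (columns), with a dot where the adjusted p is under 0.05 and grey where the gene was not tested. The column of quadriceps at 7 days holds 19 dots, 18 of them on lower values.

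Most genes of chain cleavage and cross-linking, and a minority of those of collagen synthesis, were lower in the same quadriceps at 7 days, where 7.05% of all genes were called lower. Of 13 genes of cleavage and cross-linking, 9 fell and 0 rose (median -0.88), with Loxl2 at -1.59, Loxl1 at -1.30 and Lox at -1.17, which encode cross-linking oxidases, and the matrix protein Sparc at -1.19. Of 19 genes of synthesis and folding, 5 fell (median -0.48), among them the collagen chaperone Serpinh1 at -1.14, the isomerases Fkbp10 at -0.74 and Ppib at -0.57, and the transport coat gene Sec24d at -0.67. Of 11 genes of breakdown, 3 fell, the gelatinase Mmp2 by 1.07, the protease Ctsk by 0.89 and the collagen uptake receptor Mrc2 by 0.86. Of 8 receptor genes, 2 integrin chains fell, Itga10 by 0.67 and Itgb1 by 0.46. Of 17 TGF-beta pathway genes, which include known inducers of collagen genes, 4 fell (Ltbp4 -0.70, Tgfb2 -0.64, Tgfb3 -0.47 and Skil -0.47) and 1 rose (Smad3 0.54).

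Most fibroblast markers and a few markers of other cell types were lower in the same muscle. Of 10 fibroblast markers 6 were lower at 7 days (median -0.86), led by Fbn1 (-1.89), Mfap5 (-1.37), Clec3b (-1.30) and Cd34 (-0.83), and their summed level was 841 to 960 TPM against 1439 to 2056 TPM in PBS muscle. None of the fibroblast, tendon, macrophage, endothelial or muscle fibre markers was at 0 in all libraries of either group. Of 8 tendon markers 2 were lower, Thbs4 and Tnmd, with summed levels of 159 to 400 TPM against 409 to 900 TPM. Of 7 macrophage markers Csf1r was lower (-1.39), with sums of 41.4 to 55.4 TPM against 88.7 to 180 TPM. Endothelial markers were called in 0 of 7 cases (143 to 191 TPM against 145 to 217 TPM). The sums of smooth muscle and pericyte markers overlapped, at 441 to 475 TPM against 455 to 547 TPM, as did those of adipocyte, Schwann cell, lymphocyte and regenerating muscle markers. Summed cartilage and bone markers were higher at 7 days, at 5.76 to 10.1 TPM against 3.42 to 5.44 TPM, with no overlap. Of 8 muscle fibre markers 4 were higher and 2 lower, with sums of 140380 to 152755 TPM against 113558 to 134084 TPM, so the fibre sum did not overlap either. Their part in the collagen difference was not tested. At 4 days 0 of 10 fibroblast markers were called (median -0.57), and 3 of 13 cleavage and cross-linking genes were lower.

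The response to EEV4-PMO at 4 days differed between the muscles. The difference of the differences, quadriceps minus gastrocnemius, was called lower for 9 of 36 collagen genes, beside 0.604% of all genes, and higher for Col19a1, beside 0.731% (1.33% either way). The collagen median was -0.64 and that of all genes -0.07. Col3a1 had the largest value, -1.67 ± 0.36 (adjusted p = 0.0152). In quadriceps it had 205, 331, 260.5 and 252 TPM at 4 days against the PBS values of 287 to 503 TPM, and in gastrocnemius 498 to 621 TPM against 187 to 396 TPM. Col5a1 followed with -1.55 (adjusted p = 0.00645), with gastrocnemius values of 59.0, 45.1, 50.7 and 58.3 TPM at 4 days against 26.9, 39.7, 30.2 and 35.96 TPM. Col5a2 had -1.47 and Col6a2 -1.40, and the others called lower were Col6a3, Col14a1, Col6a1, Col18a1 and Col15a1, from -1.36 to -0.93. For Col5a2 the quadriceps values were 16.3, 34.1, 24.2 and 25.7 TPM at 4 days against 38.3, 47.8, 28.9 and 37.7 TPM, with overlap. Col19a1 had 1.39 ± 0.28 (adjusted p = 0.00821), with 2.51, 2.61, 2.22 and 2.73 TPM in treated gastrocnemius against 2.13, 3.33, 1.496 and 4.14 TPM in its PBS group. The 2 muscles were sequenced as separate series of libraries, so muscle and cohort cannot be told apart. The labels used here do not say whether both muscles came from the same mice, and the main fit treated the libraries as independent. The count fell to 4 without any one of gastrocnemius treated replicate 1 or PBS replicate 1, or quadriceps treated replicates 1 and 3 or PBS replicates 2 and 4, and to 6 without gastrocnemius PBS replicate 4, quadriceps treated replicate 4 or PBS replicate 1. In a fit of the 4 groups alone 7 were called, without Col19a1, Col5a2, Col6a1 and Col18a1. Col3a1 and Col5a1 were called in all 22 alternatives. None of 10 fibroblast markers was called (median -0.79).

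The ratios of chains that share a molecule differed between groups. Collagen IV of the main network holds 2 chains from Col4a1 and 1 from Col4a2, and the ratio of their TPM was 1.34 on average (SD 0.0770, 1.08 to 1.53) over 98 libraries. The ratio of Col6a1 to Col6a2 was 0.988 (SD 0.0806, 0.859 to 1.26), where collagen VI holds 1 of each. The ratio of Col1a1 to Col1a2, of which collagen I holds 2 and 1, was 1.13 (SD 0.15, 0.782 to 1.49), with 1.24 to 1.49 in FVB/NJ gastrocnemius at 7 days and 0.782 to 1.01 in the 10 libraries of quadriceps at 3 months. In quadriceps at 7 days these 3 ratios lay apart from those of PBS muscle. Col1a1 over Col1a2 was 0.884 to 1.06 there and 1.21 to 1.33 in PBS muscle, and Col4a1 over Col4a2 was 1.19 to 1.23 against 1.38 to 1.53. Col6a1 over Col6a2 lay on the other side, 1.09 to 1.26 against 0.861 to 1.00. None of these ranges overlapped. A further ratio, Col6a3 over Col6a1, did overlap, with 0.674 to 0.760 at 7 days and 0.723 to 0.803 in PBS muscle. The ratios were given no test. In gastrocnemius at 7 days Col6a1 over Col6a2 was 1.14 and 1.11 on average after EEV4-PMO at 15 and 30 mg/kg, 0.989 after PMO and 0.994 in PBS muscle. The 3 genes Col1a1, Col1a2 and Col3a1 made up 65.6% of collagen TPM in PBS quadriceps at 4 days and 54.02% at 7 days after treatment (medians).

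**Figure D5:**
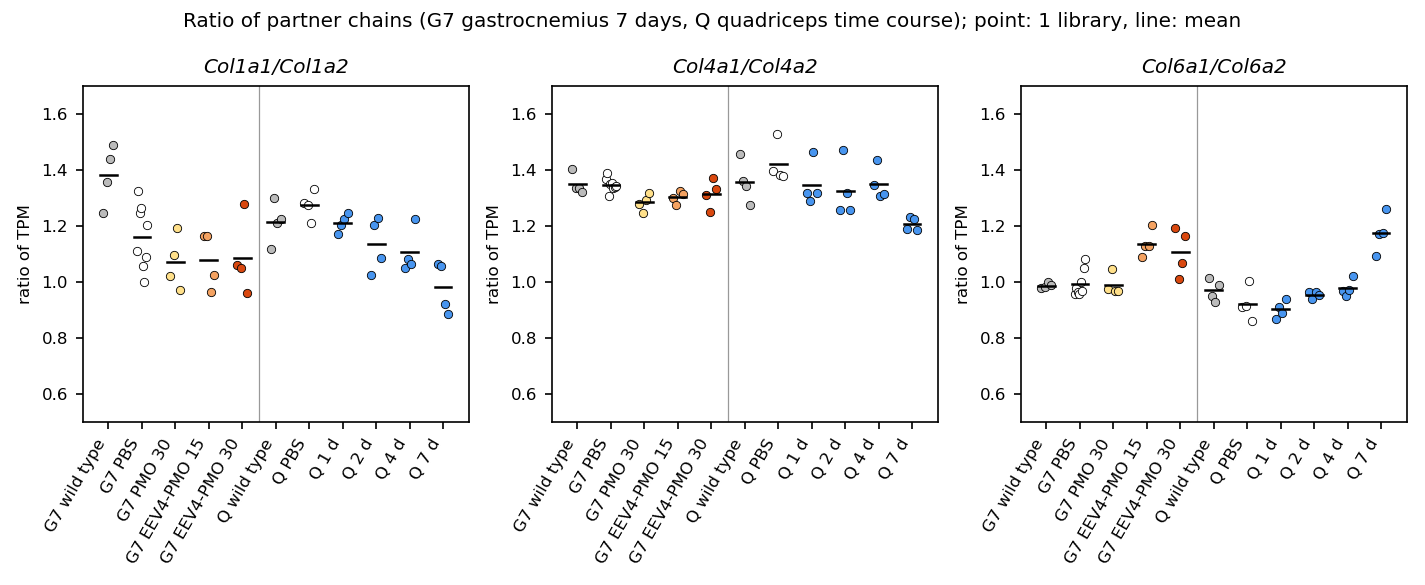
Ratio of TPM (vertical axis) of Col1a1 to Col1a2, Col4a1 to Col4a2 and Col6a1 to Col6a2 in each library of the gastrocnemius dose cohort and the quadriceps time course (horizontal axis, by group). In quadriceps at 7 days the first 2 ratios are below, and the last is above, those of the PBS group.

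In the EU cohort the 1 and 2 day groups were set against PBS muscle of 4 days. Total RNA of quadriceps showed no called collagen at 1 day (limma, 0 of 35, 1 at an unadjusted p under 0.05, beside 0.0133% of all genes). At 2 days 4 fell, beside 0.557% of all genes called and 0.424% called lower, with a collagen median of -0.30 against -0.08. Col14a1, a fibril-associated collagen, had 23.8, 22.2, 19.8 and 23.2 TPM in PBS muscle and 10.9, 10.9 and 7.00 TPM at 2 days, with no overlap (-1.16 ± 0.17, adjusted p = 0.00553). Col5a1 (-0.84) had 42.9, 50.1, 57.0 and 53.7 TPM against 29.7, 25.9 and 28.3 TPM. Col5a3 (-0.80) had 27.5, 26.8, 30.8 and 25.6 TPM against 15.4, 14.4 and 16.6 TPM, and Col6a3 (-0.84) had 73.6, 86.0, 94.3 and 92.3 TPM against 63.5, 42.0 and 40.3 TPM. None of these groups overlapped. Col14a1 alone was called without treated replicate 2 or 3 or PBS replicate 2, 3 or 4, and 2 genes without PBS replicate 1. Of 10 fibroblast markers 1 was lower (848 to 1898 TPM against 1535 to 1837 TPM). Its part was not tested. In the quadriceps time course no collagen gene was called at 2 days, and the difference between these cohorts was not tested. Col14a1 had 11.9 to 25.9 TPM there at 2 days and 11.9 to 14.0 TPM in PBS muscle, with overlap.

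In nascent RNA, 0 of 35 collagen genes were called at 1 day (limma, 3 at an unadjusted p under 0.05, beside 1.04% of all genes), and without PBS replicate 2 Col20a1 was called. At 2 days 6 fell, beside 6.06% of all genes called and 4.86% called lower, with a collagen median of -0.31 against -0.11. They were Col6a2 (-0.85), Col5a1 (-0.75), Col5a2 (-0.75), Col14a1 (-0.72), Col5a3 (-0.68) and Col4a2 (-0.53). Nascent Col5a1 had 17.5, 19.5, 22.5 and 20.04 TPM in PBS muscle and 15.4, 11.5 and 8.32 TPM at 2 days, with no overlap. Nascent Col6a2 had 28.2, 31.7, 40.9 and 33.8 TPM against 27.6, 15.6 and 13.6 TPM, Col5a2 had 14.4, 22.3, 22.8 and 16.5 TPM against 15.9, 10.6 and 7.10 TPM, and Col14a1 5.73, 6.66, 5.32 and 6.04 TPM against 4.44, 3.57 and 2.00 TPM. Treated replicate 3 was the lowest for each of Col5a1, Col6a2, Col5a2 and Col14a1. The count was 11 without treated replicate 1, 1 without treated replicate 3, 2 without PBS replicate 2, 3 without PBS replicate 3 and 0 in a fit of these groups alone. The difference between nascent and total RNA in the response was called for 0 of 35 collagen genes at 1 day (1 unadjusted, beside 0.00663% of all genes) and at 2 days (0 unadjusted, beside 0%).

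Most collagens took a smaller share of nascent than of total RNA. In HSALR PBS quadriceps 22 of 35 collagen genes were lower in nascent RNA and 6 higher, beside 20% of all genes called lower and 57.7% higher, 77.8% in all. The collagen median was -0.92 and that of all genes 0.67. With each library rescaled, the median of all genes was 0.04, and 27 collagen genes were lower and 3 higher, while 5852 of all genes were higher and 5688 lower. Col1a1 had 398, 776, 767 and 729 TPM in total RNA and 88.3, 142, 154 and 115 TPM in nascent RNA (-2.39 ± 0.33). Col1a2 (-2.08), Col3a1 (-1.90) and Col14a1 (-1.75) followed, and for all 4 genes no nascent library reached the lowest total library. Col1a2 had 343, 642, 647 and 596 TPM against 87.5, 146, 170 and 118 TPM, and Col3a1 465, 528, 697 and 686 TPM against 144, 145, 199 and 142 TPM.

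Col7a1, Col24a1 and Col13a1 stood on the other side. Col7a1 had 2.18, 1.77, 2.65 and 3.13 TPM in total RNA and 11.5, 11.7, 13.8 and 16.6 TPM in nascent RNA, with no overlap (2.07 ± 0.18, adjusted p = 1.5e-08). Col24a1, a fibrillar collagen known from bone, had 3.69, 4.30, 5.71 and 6.78 TPM against 14.7, 15.9, 23.9 and 27.6 TPM (1.80 ± 0.27). Col13a1 had 1.58, 1.91, 2.01 and 1.59 TPM against 7.14, 7.87, 6.98 and 6.48 TPM (1.55 ± 0.14, adjusted p = 2.45e-08). Col19a1, Col4a3 and Col20a1 were higher by 0.88, 0.87 and 0.73, and were not called higher once libraries were rescaled. The nascent libraries were captured from labelled RNA, and all 10 fibroblast and all 7 endothelial markers were lower in them. In HSALR PBS muscle the summed muscle fibre markers were lower too (67954 to 73018 TPM against 128348 to 141291 TPM). Summed lymphocyte markers were higher (23.4 to 31.5 TPM against 2.42 to 2.63 TPM), as were cartilage and bone markers (13.6 to 19.2 TPM against 2.85 to 4.06 TPM). The part of capture and of these markers was not tested.

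At 3 months after treatment 0 of 33 collagen genes tested were called by limma in quadriceps (3 at an unadjusted p under 0.05), beside 6.31% of all genes. The collagen median was -0.14 and that of all genes -0.16. The summed collagen level was 754 ± 155 TPM (n = 6) after EEV4-PMO and 851 ± 80.4 TPM (n = 4) in PBS muscle. Col1a1 had 73.4, 93.2 and 129 TPM as the lowest, median and highest treated library and 96.7, 109, 110 and 102 TPM in PBS muscle, so the groups overlapped. Col3a1 had from 119 to 222 TPM with a median of 146 TPM against 166, 231, 199 and 168 TPM. Treated replicate 1 stood apart, with 138 TPM of Col4a1 and 33.4 TPM of Col5a3, where the other 5 had at most 69.3 and 18.9 TPM. Without it 6 collagen genes were called lower, Col14a1 (-0.53), Col5a2 (-0.45), Col3a1 (-0.41), Col5a3 (-0.37), Col4a2 (-0.27) and Col4a1 (-0.24), and the collagen median was -0.20. The share of all genes called in that refit is not given here, and the median of all genes was already -0.16 with every library. With all libraries kept and rescaled, 0 collagen genes were called, and of all genes 3 were higher and 2 lower. Col7a1 had from 4.45 to 12.9 TPM with a median of 7.09 TPM against 11.3, 15.5, 11.2 and 14.7 TPM (-0.76, not called, with overlap), and was called at -0.91 without treated replicate 6. Of 10 fibroblast markers 0 were called (755 to 1311 TPM against 807 to 1304 TPM).

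No change in the splicing of a collagen gene passed the threshold used. Events were measured as percent spliced in (PSI, here a fraction from 0 to 1), and a change was called at an adjusted p under 0.05 (limma) with a difference of at least 0.1. Between 37 and 123 collagen events, in 19 to 23 genes, had a value in every library of a cohort and could be tested. No collagen event was called in any of 23 comparisons. Between FVB/NJ and HSALR PBS gastrocnemius at 7 days this stood beside 1.06% of all 46521 events (0 collagen events at an unadjusted p under 0.05), at 4 days beside 0.409% (4 unadjusted) and in quadriceps beside 0.557% (2 unadjusted). For EEV4-PMO in gastrocnemius at 7 days it stood beside 0.585% at 15 mg/kg (0 unadjusted) and 0.838% at 30 mg/kg (6 unadjusted), and for PMO beside 0% (4 unadjusted). EEV4-PMO against PMO at 30 mg/kg gave 0.688% of all events and the higher against the lower dose of EEV4-PMO 0.0279% (0 unadjusted each). In the gastrocnemius time course the share of all events was 0% at 1 and 2 days and 0.00411% at 4 days (2 unadjusted each). In quadriceps the share was 0% at 1 day and 0.00430% at 2 days (0 unadjusted each), 0.170% at 4 days (2 unadjusted) and 0.308% at 7 days (1 unadjusted). In the EU cohort it was 0.00139% at 1 day and 0.0153% at 2 days in total RNA (3 and 1 unadjusted), and 0.0779% and 0.120% in nascent RNA (2 and 4 unadjusted). Nascent against total RNA gave 1.71% of all events (5 unadjusted), the difference in response between them 0.00278% at 1 day and 0% at 2 days (2 and 3 unadjusted), and 3 months 0% (1 unadjusted). Single collagen events differed by up to 0.314 between genotypes and by up to 0.449 in quadriceps at 7 days, and none of them was called.

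The events with the smallest unadjusted p between genotypes were small. The Col1a2 exon printed above, listed as exclusive with another exon, had a PSI of 0.463 ± 0.0152 (SD, n = 4) in FVB/NJ and 0.50 ± 0.0103 in HSALR PBS quadriceps (difference -0.04, adjusted p = 0.446). Another Col1a2 exon, of 108 nucleotides at chr6:4520772-4520879, differed by -0.04 (adjusted p = 0.446), and an exon of Col11a2, a cartilage fibril chain, at chr17:34045771-34045848 by -0.06 in gastrocnemius at 4 days (adjusted p = 0.546).

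Of 94 collagen events with a value in at least 49 libraries, 59 (62.8%) had a mean PSI of at least 0.95, against 56.9% of all 53893 such events. Among partly included exons, the Col16a1 exon printed above had a mean PSI of 0.491 over 92 libraries and the Col13a1 exon 0.255 over 77. A 600 nucleotide exon of Col6a3 at chr1:90813215-90813814 had a mean of 0.207, with group medians from 0.138 to 0.318, while the nearest listed exons had 0.999 on one side and 0.996 and 0.999, in 2 events, on the other. The Col11a2 exon below, at chr17:34046440-34046502 on the plus strand, is shown because it is partly included and lies outside the regular repeat. It holds 2 glycine codons among 21.
Col11a2: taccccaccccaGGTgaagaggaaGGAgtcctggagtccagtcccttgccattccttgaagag
Its mean PSI was 0.868 over 92 libraries in 1 skipped event. In other skipped events of the same exon it was 0.669 over 82 libraries and 0.127 over 25. As the first of an exclusive pair it was 0.008 over 83 libraries.

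The kind of event changed the PSI given to one and the same exon, and for the Col11a2 exon above it also differed between skipped events. Of 30 collagen exons listed both as skipped and as the first of an exclusive pair, 28 had a mean PSI of at least 0.95 as a skipped exon. Of these, 27, in 12 genes, had a mean of at most 0.90 in the exclusive event, from 0.314 to 0.846. The Col1a2 exon at chr6:4515481-4515534 had a mean of 1.00 as skipped and 0.477 as exclusive, the latter from 0.419 to 0.538 over the libraries. PSI is therefore compared between libraries within one event only.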

How the data were processed

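RNA from gastrocnemius or quadriceps was depleted of ribosomal RNA and sequenced with a strand-marking kit, per the labels' protocols. Tools listed, without versions, per the submitters' processing notes are kallisto, STAR and cutadapt, and the builds listed there are mm10 and GRCm38. The deposited expression table holds TPM per gene and library, as the authors made it, and the deposited rMATS table holds PSI as a fraction per splicing event and library. Filters used before deposit are not given in the sources used here.

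Expression was tested with limma 3.58.1 (R 4.3.3, trend in the variance) on log2(TPM + 1), for genes with a mean of at least 0.5 TPM in the fitted libraries, with 1 coefficient per group of a cohort. The PSI was tested on its linear scale for events with a value in every fitted library; events of constant PSI were left out. P-values are two-sided and were adjusted by Benjamini-Hochberg over all genes or events tested. Tables and figures were made with pandas 2.3.3 and matplotlib 3.10.9 in Python 3.11.15. The fits were tested on simulated data with known changes.

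The members and gene lists were chosen with earlier results of these data known. Library values were printed for Col1a1, Col1a2, Col3a1, Col4a1, Col5a3, Col6a1, Col15a1, Col13a1, Col22a1 and Col25a1 and for the 4 called members of each comparison with the largest log2 difference. Other called members are named with their difference. Genes of other lists are named where called, at most 4 per list and comparison, and events where called or among the 3 smallest unadjusted p between genotypes. Exons whose level or sequence is given beyond these were chosen after their values were seen.

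Alternatives were a pseudocount of 0.1, a filter at 1 TPM or none, libraries rescaled by the median ratio of their genes, the replicate number as a block, fitting only the groups compared, each library left out in turn, and for PSI a logit scale, a difference of 0.2 and events with values in fewer libraries. Libraries with the same replicate number deviated together (every pair's correlation over 0.1) for gastrocnemius at 4 days after EEV4-PMO against PBS (0.113 to 0.301) and for nascent against total RNA (0.303 to 0.570). The pairing comes from the values and not from the labels.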

Additional observations from a re-analysis of the deposited data

Results flagged for a closer look

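In groups of 4 to 10 libraries, 24 library values of collagen genes stood apart from the rest of their group. They came from 260 looks, at 12 genes and the collagen sum in 20 groups, where chance alone gives about 5%. In HSALR PBS quadriceps at 4 days, replicate 3 was low for Col1a1 (354 TPM, the others 679 to 703) and Col1a2 (292 TPM, the others 527 to 538), and it belongs to the control group of the fall at 7 days. In the same group replicate 2 was low for Col19a1 (1.64 TPM, nearest 2.36) and high for Col8a1 (12.4 TPM, nearest 5.40), and replicate 4 was high for Col7a1 (3.58 TPM, nearest 2.11). In the total RNA of the EU cohort, PBS replicate 1 was low for Col1a1 (398 TPM, nearest 729) and Col1a2 (343 TPM, nearest 596), and in nascent RNA PBS replicate 3 was high for Col3a1 (199 TPM, nearest 145).

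At 3 months, treated replicate 1 was high for Col4a1 (138 TPM), Col5a3 (33.4 TPM), Col15a1 (36.2 TPM), Col13a1 (2.86 TPM), Col19a1 (3.33 TPM) and Col8a1 (6.04 TPM), where the nearest others had 69.3, 18.9, 22.2, 1.76, 2.06 and 3.80 TPM. PBS replicate 1 of that cohort was high for Col19a1 (2.52 TPM, nearest 1.89). In treated quadriceps, Col3a1 was high in replicate 2 at 2 days (609 TPM, nearest 397) and Col8a1 in replicate 2 at 4 days (10.2 TPM, nearest 5.004).

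In gastrocnemius, Col3a1 was high in replicate 3 at 2 days, though by little (349 TPM, nearest 343). Col5a3 was low in FVB/NJ replicate 3 at 4 days (22.8 TPM, nearest 29.2), Col6a1 low in HSALR PBS replicate 1 at 4 days (57.3 TPM, nearest 78.2) and Col13a1 high in replicate 2 of that group (2.83 TPM, nearest 2.11). In the dose cohort, Col6a1 was high in PMO replicate 3 (72.2 TPM, nearest 57.0), Col22a1 low in replicate 3 of EEV4-PMO at 15 mg/kg (9.13 TPM, nearest 12.9) and Col19a1 high in PBS replicate 5 (3.78 TPM, nearest 2.98).

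The response to EEV4-PMO at 4 days differed between quadriceps and gastrocnemius by a test of the difference itself (limma) for 10 collagen genes. The log2 values, quadriceps minus gastrocnemius, were -1.67 for Col3a1, -1.55 for Col5a1, -1.47 for Col5a2, -1.40 for Col6a2, -1.36 for Col6a3, -1.35 for Col14a1, -1.24 for Col6a1, -1.09 for Col18a1, -0.93 for Col15a1 and 1.39 for Col19a1. The share of all genes called is given above, and muscle and cohort cannot be told apart. Whether the 2 muscles came from the same mice is not in the labels used here. In a fit of the 4 groups alone Col5a2, Col6a1, Col18a1 and Col19a1 were not called. Only Col3a1 and Col5a1 were called in all 22 alternatives. The call was lost in 16 of them for Col6a1, in 15 for Col14a1 and in 13 for Col15a1.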

How the results depend on the processing

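Of 99 called collagen differences, 52 were past the threshold in every alternative, 65 in every planned one other than leaving out a library, and 0 changed sign. The fit of the compared groups alone ended 20 of the calls, the replicate block 20, no filter 12, rescaling 8, a pseudocount of 0.1 ended 2 and a filter at 1 TPM 0. The causes were not tested. The number of collagen genes called between genotypes in gastrocnemius at 7 days was 4 with the replicate block (8 without). For EEV4-PMO against PMO it was 1 with no filter and 1 in a fit of the groups alone (3 in the fit reported). For the genotypes in gastrocnemius at 4 days it was 2 when rescaled and 0 in a fit of the groups alone (1 reported), and in quadriceps 2 with a filter at 1 TPM and 2 when rescaled (1 reported). For EEV4-PMO in gastrocnemius at 4 days it was 0 when rescaled, 0 with the replicate block and 0 alone (1 reported). In quadriceps at 4 days it was 3 with the replicate block (5 reported), and in total RNA of the EU cohort at 2 days 2 with it (4 reported). In nascent RNA at 2 days it was 3 when rescaled and 0 alone (6 reported). For the difference between muscles at 4 days it was 8 with the replicate block (10 reported), where Col14a1 and Col6a1 were not called. Col7a1 and Col18a1 were not called with it at 15 mg/kg in gastrocnemius, nor Col18a1 at 30 mg/kg. With the replicate block 26 genes were called between nascent and total RNA. With a block meant to stand for the animal it was 28, an alternative chosen after seeing the data. The labels do not name the animal, so this block rests on the pairing seen in the values. In the other comparisons, too, the labels give only a replicate number. 1 collagen splicing event, in Col22a1, was called between nascent and total RNA in a fit of the groups alone (PSI difference 0.14, adjusted p = 0.0486), and 0 otherwise.

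With each library left out in turn, the number of collagen genes called ranged from 3 to 11 between genotypes in gastrocnemius at 7 days, 2 to 8 and 4 to 8 for EEV4-PMO at 15 and 30 mg/kg there, and 1 to 2 for EEV4-PMO against PMO. It ranged from 1 to 3 between genotypes in gastrocnemius at 4 days and 1 to 2 in quadriceps. After EEV4-PMO it ranged from 0 to 2 in gastrocnemius at 4 days, 1 to 6 in quadriceps at 4 days, 16 to 20 at 7 days and 0 to 6 at 3 months. In the EU cohort it ranged from 1 to 5 in total RNA at 2 days, 0 to 1 and 1 to 11 in nascent RNA at 1 and 2 days, and 24 to 28 between nascent and total RNA. For the difference between muscles at 4 days it ranged from 4 to 11. Depth is unknown, so the limits that it sets on low genes such as Col28a1 could not be given.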
